A study of Homo sapiens with 10 samples.

Results

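The guanylate-binding protein genes GBP1 to GBP5 were examined in the mRNA-seq data of NB4 cells, a human line that came from acute promyelocytic leukemia. They were taken as the protein-coding rows with these symbols, and each of the 5 was found once in both deposited tables, among 60603 genes of which 19975 were protein-coding. In the knockdown experiment, cells were infected with lentivirus from the pLKO.1 puro vector, either empty (EV) or carrying a hairpin against GSE1, shA1 or shB2, and were collected after 48 h. In the inhibitor experiment, cells received 2 µM MC2580, an inhibitor of the histone demethylase LSD1, or DMSO for 24 h. The 6 libraries of the first and the 4 of the second form 5 groups with 2 replicates each. All knockdown libraries, EV included, come from infected cells, and all 10 libraries come from this single cell line. The tables give 1 level per gene and experiment, the base mean, which is the average over an experiment's libraries of counts divided by size factors. The levels below are therefore the authors' means over treated and control cells together. They have no spread or depth per library, and hairpin and EV cells, or MC2580 and DMSO cells, were not compared here. In such bulk data, fewer expressing cells and less RNA per cell cannot be told apart.

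Guanylate-binding proteins are large GTPases that interferon-gamma induces. They assemble on the membranes of vacuoles and intracellular bacteria, where they take part in cell-autonomous defence and in the activation of inflammasomes. Some members are anchored to membranes by a prenyl group that is added to a cysteine of a CaaX motif at the carboxy terminus. In myeloid cells they are known as markers of an interferon response.

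The 5 genes lie in 1 cluster on the minus strand of chromosome 1 of GRCh38 (GENCODE release 44), within 266 kb. GBP3 (ENSG00000117226.12) spans chr1:89006679-89022894, GBP1 (ENSG00000117228.10) chr1:89051882-89065360 and GBP2 (ENSG00000162645.13) chr1:89106132-89150456. GBP4 (ENSG00000162654.9) follows at chr1:89181144-89198942 and GBP5 (ENSG00000154451.14) at chr1:89256189-89272860. GBP7 lies between GBP2 and GBP4, and its annotated span overlaps that of GBP2. From GBP3 to the end of the GBP1 pseudogene GBP1P1, 20 genes are annotated over 420 kb, and 17 of them are in the tables. Of these 17, 9 were above 0 in the knockdown experiment and 8 in the inhibitor experiment. Among all 60603 genes, 33416 and 32286 were above 0, so the interval was not unusual in this. GBP6 and GBP7, the other protein-coding family members in the interval, were listed at 0 in both.

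The coding ends show which members carry the cysteine of a CaaX motif. The last 30 coding bases of the MANE Select transcripts (the agreed reference transcript of each gene) are printed 5′ to 3′ with the stop codon at the end, and a cysteine codon 4 codons before the stop is in capitals. They lie at chr1:89053355-89053384 for GBP1, chr1:89108175-89108204 for GBP2, chr1:89007724-89007753 for GBP3, chr1:89185254-89185283 for GBP4 and chr1:89260704-89260733 for GBP5, all on the minus strand.
GBP1: agacgacgaaaggcaTGTaccataagctaa
GBP2: tcattggagccaataTGTaacatactctaa
GBP3: agatatatgtcgcataagctaaagatctaa
GBP4: gggacaaaatatcttggctcacgtatttaa
GBP5: aataacgatgatccaTGTgttttactctaa
GBP1, GBP2 and GBP5 have the codon TGT at this place. GBP3 has AAG and GBP4 has GGC there, and neither encodes cysteine. The coding sequences hold 592 codons before the stop in GBP1, 591 in GBP2, 595 in GBP3, 640 in GBP4 and 586 in GBP5.

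The members share much of their coding sequence. In global alignments, GBP1 and GBP3 were identical at 91.7% of aligned bases, the highest of the 10 pairs. GBP2 and GBP3 followed at 83.2%, and GBP1 and GBP2 at 82.8%. GBP4 stood farthest from the others, at 69.5% to 70.3%. Such likeness bears on counting, since a read that fits several genes must be divided between them. Of the 50-base words of the GBP1 reference transcript, 14.0% also occurred in a transcript of another annotated gene on either strand, mostly GBP1P1. The share was 6.60% in GBP4, 4.18% in GBP3, 2.53% in GBP5 and 1.66% in GBP2. With 100-base words it fell to 1.98% in GBP1, 1.03% in GBP5, 0.943% in GBP4 and 0% in GBP2 and GBP3. The read length is not given in the sources used here. The level of GBP1 is therefore the least certain on this count.

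RefSeq promoters (GRCh38.p14) were given for 3 of the 5 members, GBP1, GBP3 and GBP4. Each was searched on both strands, from 250 bases before to 50 after the RefSeq start site, for 3 motifs of factors that act downstream of interferon or inflammatory signals. These were the core of the interferon-stimulated response element (ISRE, GAAANNGAAA), the gamma-activated site (GAS, TTCNNNGAA, which reads alike on both strands) and an NF-kB site (GGGNNTTTCC). The stretch from 150 bases before to 20 after the start site holds every match and is printed on the gene's strand, with matches in capitals. It covers chr1:89065189-89065358 for GBP1, chr1:89022847-89023016 for GBP3 and chr1:89198923-89199092 for GBP4, all on the minus strand.
GBP1: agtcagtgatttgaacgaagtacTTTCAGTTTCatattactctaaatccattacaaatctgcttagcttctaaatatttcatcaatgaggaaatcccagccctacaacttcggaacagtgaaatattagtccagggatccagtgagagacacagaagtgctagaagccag
GBP3: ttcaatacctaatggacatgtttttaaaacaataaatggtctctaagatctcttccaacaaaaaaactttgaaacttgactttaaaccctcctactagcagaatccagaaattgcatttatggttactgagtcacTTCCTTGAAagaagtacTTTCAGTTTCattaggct
GBP4: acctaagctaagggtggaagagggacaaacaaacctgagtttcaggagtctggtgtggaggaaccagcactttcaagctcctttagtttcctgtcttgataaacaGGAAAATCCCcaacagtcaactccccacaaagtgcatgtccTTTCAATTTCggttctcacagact
All 3 promoters held 1 match to the ISRE core, a motif found in 3.57% of the 35116 promoters of the same length. The matched letters on the gene's strand were TTTCAGTTTC in both GBP1 and GBP3 and TTTCAATTTC in GBP4. Counting the RefSeq start site as 0, the match began at -127 in GBP1, at 2 in GBP3 and at -4 in GBP4. These positions depend on the start site used. The whole stretch printed for GBP1 lies inside its GENCODE span, whose 5′ end is at 89065360, and the match lies at 89065326-89065335. In GBP3 that end is at 89022894 and the match at 89022855-89022864, so both matches lie shortly inside the GENCODE spans. Of these 3, exact matches to the GAS were found in GBP3 alone, TTCCTTGAA from -15 to -7, and 7.66% of all promoters had one. Exact matches to the NF-kB site were found in GBP4 alone, GGAAAATCCC from -45 to -36, and 1.91% of all promoters had one. No match overlapped another. With 1 mismatch allowed, all 3 promoters held a GAS match, and GBP1 as well as GBP4 held an NF-kB match. At this setting 66.1% of all promoters had a GAS match and 27.3% an NF-kB match.

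GBP2 was the member with the highest pooled level in both experiments and GBP4 the lowest. GBP2 had a base mean of 913 in the knockdown experiment and 472 in the inhibitor experiment. GBP5 had base means of 408 and 285, and GBP3 of 184 and 91.8, in the same order. All 3 were thus above GBP1 and GBP4 in both experiments before any correction for length. GBP1 had a base mean of 11.3 in the knockdown experiment and 52.6 in the inhibitor experiment. GBP4 had base means of 2.85 and 0.356. Together the members made up 0.00375% of the summed base means of the knockdown table and 0.00219% of those of the inhibitor table.

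**Figure D1:**
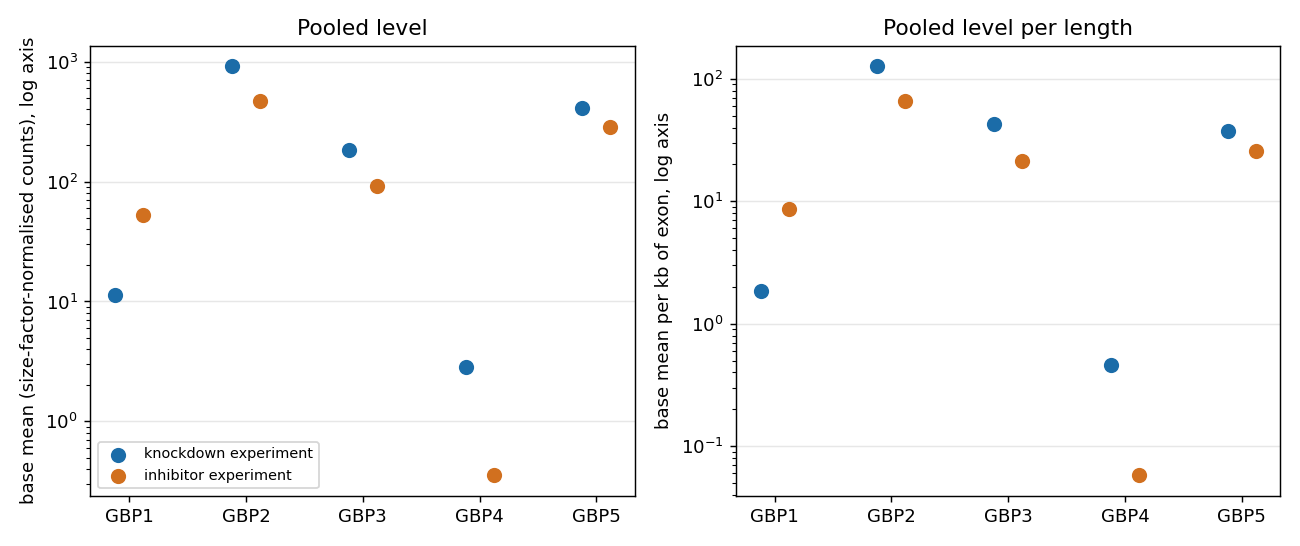
Base mean (left) and base mean per kb of exon (right) of GBP1 to GBP5 on log axes, with 1 point per experiment, the authors' mean over 6 knockdown libraries (blue) or 4 inhibitor libraries (orange), and no error bars because no values per library were used. GBP2 is highest and GBP4 lowest, and GBP1 is the only member whose orange point lies above its blue point.

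To set the genes against each other, each base mean was divided by the summed length of the gene's exons, overlaps counted once. In the knockdown experiment, GBP2 had 126 per kb of exon, GBP3 43.1, GBP5 37.3, GBP1 1.85 and GBP4 0.464. The level of GBP2 per kb was thus 2.93 times that of GBP3, or 5.64 times with coding exons alone and 4.45 times with the longest transcript. It was 68.1 times that of GBP1, or 45.9 times with the mean transcript length and 81.4 times with coding exons alone. In the inhibitor experiment the values per kb were 65.4 for GBP2, 26.0 for GBP5, 21.4 for GBP3, 8.62 for GBP1 and 0.0580 for GBP4. There the level of GBP2 per kb was 7.59 times that of GBP1, or 5.11 times with the mean transcript length and 9.07 times with coding exons alone. The ratio of GBP3 to GBP5 per kb was 1.16 in the knockdown experiment and 0.825 in the inhibitor experiment, but 0.393 and 0.281 with coding exons alone. Their order and distance thus depend on the length used, since with the longest transcript, the mean transcript length or coding exons as the length GBP5 stood above GBP3 in both experiments. The places of GBP2, GBP1 and GBP4 were the same with all 4 lengths. Whether neighbours in this order differ beyond the spread between libraries could not be examined.

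Against other genes, the members had low to middling levels. Among 17298 protein-coding genes above 0 with a length in the knockdown experiment, the median was 75.2 per kb, and only GBP2 exceeded it among the 5. Its level per kb was above that of 56.8% of these genes, while GBP3 exceeded 44.1%, GBP5 43.0%, GBP1 25.3% and GBP4 17.1%. In the inhibitor experiment the median of 17050 genes was 71.9 per kb and all 5 members were below it. GBP2 exceeded 48.9% of the genes there, GBP5 40.3%, GBP3 39.0%, GBP1 33.3% and GBP4 2.84%. By base mean alone, without length, GBP2 ranked 6810 of 17337 in the knockdown experiment and 8189 of 17091 in the inhibitor experiment. GBP5 lay near the middle by this measure, at rank 8677 and rank 9134.

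**Figure D2:**
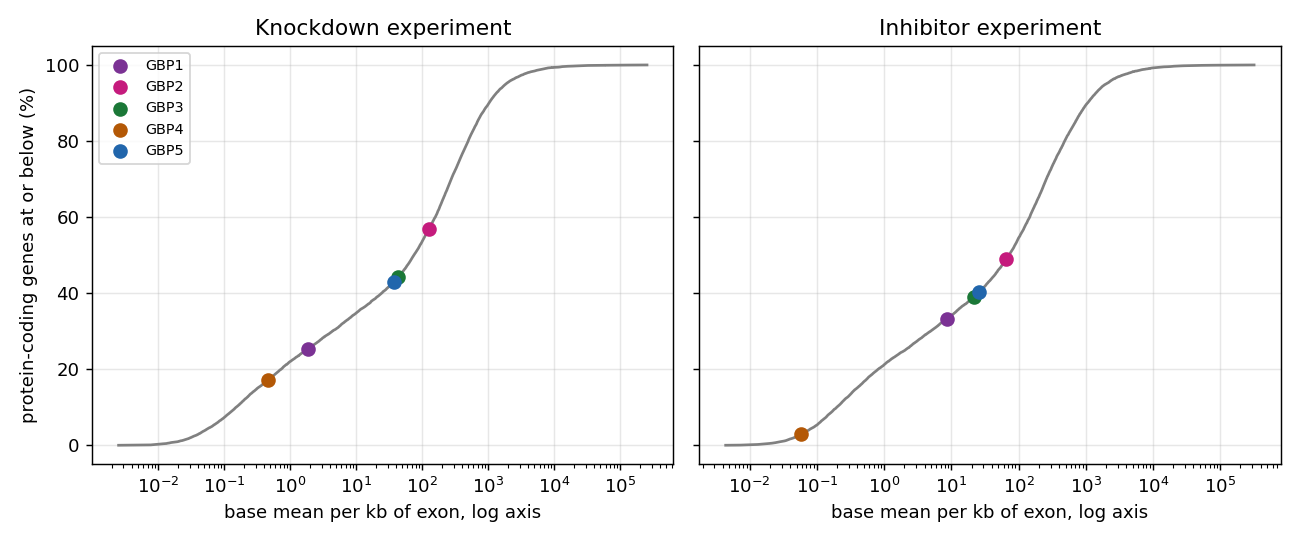
Cumulative share of protein-coding genes above 0 (y axis, percent) against base mean per kb of exon (x axis, log) in the knockdown experiment (left) and the inhibitor experiment (right), with the members as coloured points on the curve. GBP2 lies at 56.8% and 48.9%, GBP3 and GBP5 are next to each other between 39.0% and 44.1%, and GBP4 moves from 17.1% to 2.84%.

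The pooled levels were then set side by side between the experiments. These differ in time, infection, solvent and the share of treated cells, which cannot be told apart, and the tables were normalised separately. Each log2 ratio of knockdown to inhibitor base mean was therefore centred on the median over 10916 protein-coding genes whose base means reached 50 in both experiments, which was 0.07. GBP3 had a centred log2 ratio of 0.94, GBP2 of 0.88 and GBP5 of 0.45, so all 3 were higher in the knockdown experiment. In linear terms these are 1.92-fold, 1.84-fold and 1.37-fold, and none of them passed 2-fold. Centred on the summed base means instead, GBP3 had a log2 ratio of 1.03 and passed 2-fold, while GBP2 at 0.97 and GBP5 at 0.54 did not. At that centring, 4.83% of protein-coding genes with at least 10 in both were over 2-fold higher in the knockdown experiment. Centred on the median, 2.67% of the 10916 genes were over 2-fold higher in the knockdown experiment and 1.02% in the inhibitor experiment. The ratio of GBP3 exceeded that of 96.8% of these genes, GBP2 96.2% and GBP5 84.6%.

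GBP1 went the other way. Its centred log2 ratio was -2.28, a level 4.87-fold higher in the inhibitor experiment. GBP1 did not reach a base mean of 50 in the knockdown experiment, so it was read against the 12354 genes with at least 10 in both. Of these, 1.72% were over 2-fold higher in the inhibitor experiment and 3.92% over 2-fold higher in the knockdown experiment, and 0.0243% had a lower ratio than GBP1. At 11.3 in the knockdown experiment, GBP1 lies just above this floor, and it was not compared with genes of like level alone. Of the 4 members that reached 10 in both, GBP1 was the 1 beyond 2-fold. GBP3 joined it when centred on the summed base means, where 4.83% of these 12354 genes were over 2-fold higher in the knockdown experiment. GBP1P1, which shares the most 50-base words with GBP1, had base means of 2.33 and 0.705 in the knockdown and inhibitor experiments. Another annotated entry of that name had no value. The part of shared reads in the GBP1 ratio was not tested. GBP4 had a centred log2 ratio of 2.93, higher in the knockdown experiment, but with base means of 2.85 and 0.356 it was in neither set of genes. With 1 added to each base mean its ratio was 1.44.

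**Figure D3:**
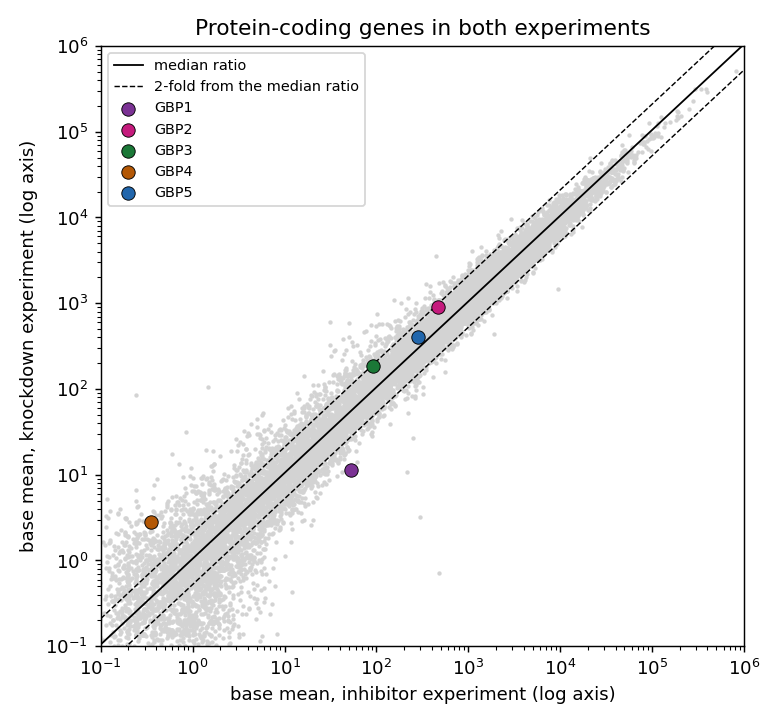
Base mean in the knockdown experiment (y axis, log) against the inhibitor experiment (x axis, log) for protein-coding genes above 0 in both (grey, those below 0.1 not drawn), with the median ratio of genes that reached 50 in both (solid line), 2-fold from it (dashed lines) and the members as coloured points. GBP1 lies below the lower dashed line, GBP4 above the upper one, and GBP2, GBP3 and GBP5 between the median and the upper line.

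A mean of values that cannot be negative also limits its parts, if the base means average all 6 and all 4 libraries. For GBP1, no group of the knockdown experiment can then have a mean above 34.0, and at least 1 group of the inhibitor experiment has a mean of at least 52.6. Hence at least 1 of the DMSO and MC2580 groups had a GBP1 level above those of EV, shA1 and shB2, each on its table's scale, by a factor of at least 1.55, or 1.62 after centring. Which of both groups it was cannot be read from the mean. For GBP4, no inhibitor group can exceed 0.712 and at least 1 knockdown group reaches 2.85, a factor of at least 4.00, or 3.81 after centring. These factors hold for the observed means only and take no account of sampling error, and for GBP4 they rest on very few reads. No single library of the inhibitor experiment can hold more than 1.42 normalised counts of GBP4, and none of the knockdown experiment more than 17.1. For GBP2 and GBP5 the limits leave both orders of the groups possible, and for GBP3 too once the ratio is centred (0.958).

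Genes of the pathway that induces the members were read next. All 13 genes of interferon-gamma signalling and GBP transcription reached a base mean of 10 in both experiments. So did 12354 of all 19975 protein-coding genes, which is also the background for such counts in the lists below. Of the 13, 11 exceeded GBP2 per kb in the knockdown experiment and 12 in the inhibitor experiment. GBP2 itself exceeded 56.8% and 48.9% of protein-coding genes above 0 there. IRF1, a transcription factor that acts on GBP promoters, had 187 and 170 per kb in the knockdown and inhibitor experiments. SOCS1, a feedback inhibitor of JAK kinases, had the lowest base mean, 159 and 102. The centred log2 ratios of this list had a median of 0.51, beside 0 for the genes they were centred on. Of the 13, 0 passed 2-fold in either direction. Among all genes of at least 10 in both, 3.92% were over 2-fold higher in the knockdown experiment and 1.72% in the inhibitor experiment. Centred on the summed base means, 1 of the 13 (JAK1) was over 2-fold higher in the knockdown experiment, beside 4.83% of these genes.

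Genes whose proteins act with or after the guanylate-binding proteins had differing mRNA levels. Of 12 genes for inflammasome and pyroptosis partners, 10 reached a base mean of 10 in both experiments, with a median centred log2 ratio of 0.65. Of these 10, 4 were over 2-fold higher in the knockdown experiment (NLRC4, IL1B, TLR4 and AIM2) and 0 in the inhibitor experiment, beside 3.92% and 1.72% of all genes at this base mean. AIM2, a sensor of cytosolic DNA, had base means of 49.6 and 20.1. CASP4, which binds bacterial lipopolysaccharide, had base means of 1303 and 1080, while CASP5 was listed at 0 and 0.983. PYCARD, the adaptor of several inflammasomes, had the highest base mean of the list in both experiments, 3345 and 4676. Its centred log2 ratio was -0.55 and that of GSDMD, also of this list, was -0.34, against the direction of the median. All 6 genes for CaaX prenylation and processing reached 10, from 623 for PGGT1B, a subunit of a prenyltransferase, to 3814 for ICMT, which methylates the prenylated cysteine. Their median centred log2 ratio was -0.16 and 0 of 6 passed 2-fold.

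Other genes known to respond to interferon also covered a wide range of levels. Of 8 other large GTPases and their relatives, 6 reached a base mean of 10 in both experiments, and GBP6 and GBP7 were listed at 0. MX2, an antiviral dynamin-like GTPase, had base means of 3944 and 3847, and MX1 had 525 and 274. Of 13 further interferon-gamma targets, 12 were found by symbol, all but RNF213, and 9 reached 10 in both. WARS, a tRNA synthetase induced by interferon-gamma, had the highest base mean at 9050 and 8062, while the chemokine gene CXCL9 had 0.447 and 0.492. Of these 9, 2 were over 2-fold higher in the knockdown experiment, ICAM1 with 4493 against 1366 and APOL1 with 196 against 74.9, again beside 3.92% of all genes. CXCL10 joined them when centred on the summed base means, beside 4.83% of all genes of at least 10 in both. The medians of the centred log2 ratios were 0.51 in both lists.

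**Figure D4:**
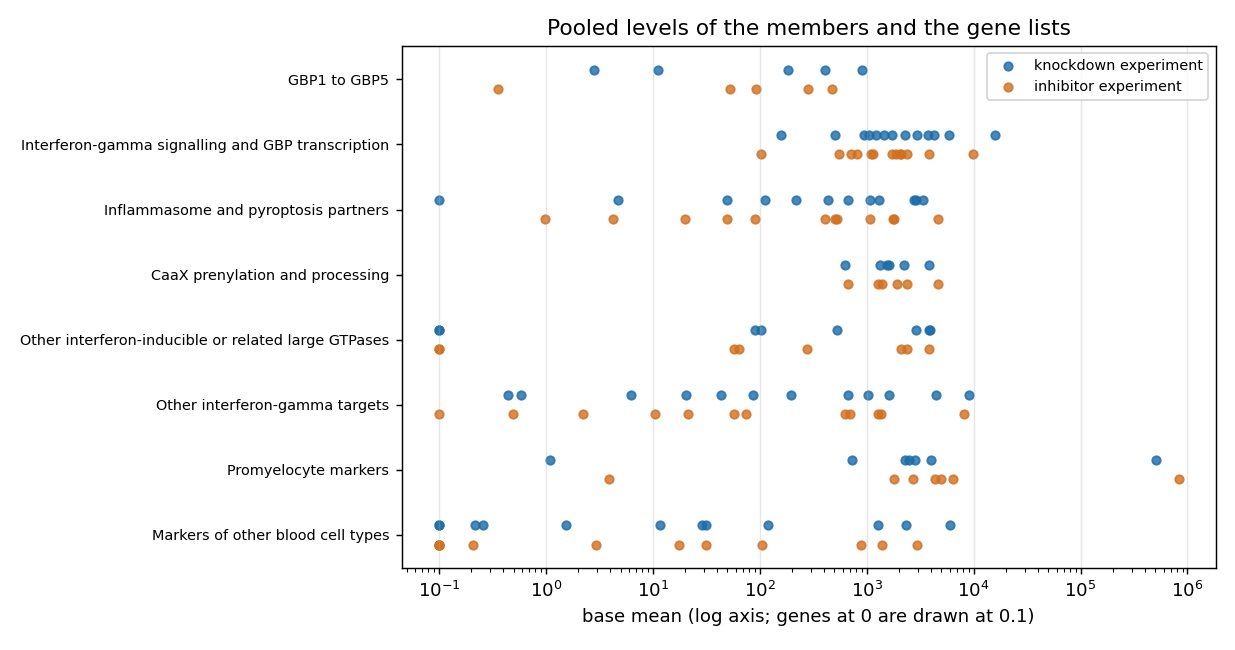
Base means (x axis, log, genes at 0 drawn at 0.1, not corrected for length) of GBP1 to GBP5 and of the genes of 7 lists (rows), with 1 point per gene in the knockdown experiment (blue) and the inhibitor experiment (orange). The signalling and prenylation genes lie above 100, whereas GBP1 to GBP5 spread from 0.356 to 913.

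The cell type was checked against markers. Of 7 promyelocyte markers, 6 reached a base mean of 10 in both experiments, led by MPO, the myeloperoxidase of azurophil granules, with 506765 and 824818. ELANE, which encodes neutrophil elastase and is also a defining promyelocyte gene, was near 0, at 1.10 and 3.87. Of these markers, 2 (CEBPE and AZU1) were over 2-fold higher in the inhibitor experiment, beside 1.72% of all genes, and the median centred log2 ratio of the 6 was -0.82. Of 12 markers of other blood cell types, 6 reached 10 in both, with a median centred log2 ratio of 0.57 and 0 beyond 2-fold. Centred on the summed base means, 1 (CD4) was over 2-fold higher in the knockdown experiment, beside 4.83% of all genes of at least 10 in both. The summed base means of the list were 9864 and 5408, most of it CD4. CD4 was highest at 6037 and 2961, followed by NKG7 at 2346 and 1407. The platelet gene PF4 was listed at 0 in both and the B-cell gene MS4A1 was at 0.217 and 0. The T-cell gene CD3E was at 1.55 and 2.98, so the CD4 level was not read as a sign of T cells. The part of these markers in the member levels was not tested. GSE1 had base means of 2963 and 4441, and KDM1A, which encodes LSD1, of 7648 and 6285, each a mean over all libraries and so no check of the knockdown.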

How the data were processed

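Total RNA of NB4 cells was sequenced by mRNA-seq after TruSeq library preparation. The authors mapped reads to hg38 with STAR (2.7 per the submitters' processing notes), quantified genes with RSEM and fitted DESeq2 (versions of both not given in the sources used here). The authors deposited base means (unit: signal), in which counts are divided by size factors and averaged across each experiment. The base mean is given under both hairpins, and the columns differed for 0 genes. The other 15 measurement columns hold the authors' own comparisons (log2 fold changes, standard errors, Wald statistics, p-values and adjusted p-values) and were not used. Base means sum to 40543130 (knockdown) and 41201112 (inhibitor). Depth per library is unknown, so no interval, error or test was computed. A count-based test was planned only if values per library were given, which they were not, so none was run.

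Samples were grouped by their titles. Columns were read as pooled over all libraries of an experiment. Of 60603 identifiers, 60261 matched GENCODE release 44 on GRCh38, the 5 members included. Levels per kb used summed exon lengths. Ratios between experiments were centred on the median over protein-coding genes whose base means reached 50 in both. Only the centring and the 2-fold call were checked on simulated base means. The planted changes were well beyond 2-fold and the simulated spread far narrower than in the data. The check therefore shows that the steps run correctly, not how well real ratios are called. Coding sequences were aligned with Biopython 1.88. Calculations used Python 3.11.15, NumPy 2.4.6 and pandas 2.3.3, and figures matplotlib 3.10.9.

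The genes named are the 5 members, annotated GBP genes and pseudogenes, GSE1, KDM1A and genes of 7 lists, given as counts with the highest and lowest base mean, and some genes of these lists are not reported here. IRF1, JAK1, CXCL10, RNF213, CASP4, AIM2, NLRC4, IL1B, TLR4, GSDMD, MX1, ICAM1, APOL1, CEBPE, AZU1, NKG7, MS4A1 and CD3E fall outside that rule and were named after their values were seen. The members and lists were chosen with earlier results of these data known. Coding ends, coding identity, shared words and limits from means, and list counts centred on summed base means, were added after the values were seen.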

Additional observations from a re-analysis of the deposited data

How the results depend on the processing

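No paired analysis was possible because the tables hold no value per library, so fits with a replicate block, without a replicate, or with another tool or filter were not run. Protein identity was not computed and coding identity stands in its place. Over the shorter sequence in place of aligned bases, an alternative added after seeing the data, all 10 pairs moved by less than 5 percentage points.

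The log2 ratios between experiments kept their direction under every alternative. They moved by less than 1.5-fold when centred on summed base means or on genes of at least 10 or above 0. GBP3 crossed 2-fold only on summed base means (1.03), where 4.83% and 1.30% of genes of at least 10 were over 2-fold higher in the knockdown and inhibitor experiments, and with a pseudocount of 1 only GBP4 moved more, to 1.44. Percentiles depend on the genes compared by construction. Among all genes above 0 in the knockdown experiment, GBP1 to GBP5 stood at percentiles 53.5, 79.4, 69.1, 42.0 and 73.3, and in the inhibitor experiment at 61.5, 73.9, 64.5, 11.4 and 70.4. Among protein-coding genes of at least 10, GBP1, GBP2, GBP3 and GBP5 stood at 0.972, 46.0, 22.1 and 31.2 (knockdown) and at 12.4, 34.9, 16.6 and 27.4 (inhibitor), and GBP4 is below this limit.

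Levels per kb rose with shorter lengths. With the longest transcript, GBP2 had 223 and 116 per kb and GBP5 59.9 and 41.8 in the knockdown and inhibitor experiments. With the mean transcript length, GBP1 to GBP5 had 6.61, 303, 118, 1.16 and 124 per kb (knockdown) and 30.7, 157, 58.8, 0.145 and 86.3 (inhibitor). With coding exons they had 6.32, 515, 91.3, 1.48 and 232 (knockdown) and 29.4, 266, 45.5, 0.185 and 162 (inhibitor). With 1 mismatch allowed, the ISRE core was found in 33.0%, the GAS in 66.1% and the NF-kB site in 27.3% of all promoters. GBP1, GBP3 and GBP4 then held 2, 5 and 1 GAS matches, 1, 0 and 2 NF-kB matches and 2, 1 and 1 ISRE matches. No depth limit can be given per library, and the low base means of GBP1 and GBP4 rest on few reads.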
